A study of Rattus norvegicus with 6 samples.

Results

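The genes described here are 10 feedback genes of the ERK pathway, read on rat cortical neurons with and without a short exposure to the complement protein C1q. They are the Sprouty genes Spry1, Spry2 and Spry4, the Spred genes Spred1 and Spred2, the dual specificity phosphatase genes Dusp4, Dusp5 and Dusp6, and the transcription factor genes Etv4 and Etv5. Members were all probe sets that the platform annotation ties to exactly 1 gene with one of these symbols. This gave 10 probe sets, 1 for each gene, out of 29215 on the array, of which 15310 named exactly 1 gene. Neurons were taken from the cortex of Sprague-Dawley rat embryos at day 18 and kept for 3 days in the medium NB-N2. The untreated group held 3 arrays and the C1q group 3 arrays of neurons stimulated with 10 nM C1q for 3 h. Array numbers 1 to 3 within a group come from the labels, which do not say that they stand for separate cultures or embryos. P-values therefore rest on a spread between arrays that could be technical.

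ERK is the last kinase of a cascade in which a growth factor receptor activates Ras, Ras activates Raf, Raf activates MEK and MEK activates ERK. Active ERK raises transcription of its own inhibitors, so transcripts of Sprouty, Spred and Dusp genes serve as a readout of recent pathway activity. Sprouty and Spred proteins act on the steps between receptor and Raf, while Dusp proteins remove phosphate from ERK itself. Etv4 and Etv5 encode ETS family factors that are induced together with these inhibitors by fibroblast growth factors, among other places in the developing cortex. C1q is the recognition protein of the classical complement pathway, and the series title names neuroprotection by it. The comparison asks whether transcripts that report ERK activity differ after 3 h of C1q.

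RefSeq windows of 300 bases on the GRCr8 assembly, from 250 bases before to 50 after a transcription start, were on hand for 8 of the 10 genes, with 9 windows in all because Spry2 has 2 starts. The genes without one are Dusp4 and Etv4. Letters of sites through which ERK signalling is known to reach promoters were searched on both strands. The ETS site CCGGAA was found in windows of Dusp5, Spry2 and Spry4, against 15.0% of all 33469 windows. The short site TGACG, which is contained in the cyclic AMP response element TGACGTCA, was found in windows of Dusp5, Spred2 and Spry2, against 21.2% of all windows. TGACGTCA itself and the AP-1 site TGANTCA were in 0 of the 9 windows, against 1.83% and 7.33% of all. The CArG box, the site of serum response factor, was added to the search after the Dusp5 window had been read. It stood in 1.64% of all windows and, among these genes, in that of Dusp5, with 2 copies end to end. GC content was above the median of all windows, 51.7%, in all 9. A match is a stretch of letters and not a measured binding site.

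The Dusp5 window and the window at the upstream start of Spry2 are shown because each holds both the ETS and the TGACG letters. Capitals mark the matches on either strand, and the sequences run 5′ to 3′ along the gene.
Dusp5, chr1:262543524-262543823, plus strand: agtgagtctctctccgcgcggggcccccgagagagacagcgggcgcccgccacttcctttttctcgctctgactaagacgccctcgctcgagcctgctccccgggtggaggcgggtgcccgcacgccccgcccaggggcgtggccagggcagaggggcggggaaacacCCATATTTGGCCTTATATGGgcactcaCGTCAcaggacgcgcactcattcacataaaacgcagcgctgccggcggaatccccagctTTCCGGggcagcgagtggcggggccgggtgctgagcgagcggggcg
Spry2, chr15:89111877-89112176, minus strand: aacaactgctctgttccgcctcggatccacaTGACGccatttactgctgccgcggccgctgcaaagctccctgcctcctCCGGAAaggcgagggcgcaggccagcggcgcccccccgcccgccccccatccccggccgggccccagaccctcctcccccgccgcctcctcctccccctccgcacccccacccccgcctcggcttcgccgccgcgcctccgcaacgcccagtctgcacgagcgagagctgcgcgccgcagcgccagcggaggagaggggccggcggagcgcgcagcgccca
In Dusp5 the CArG boxes begin 82 and 72 bases before the start and the TGACG letters 55 bases before it, and the ETS letters begin 4 bases after it. In Spry2 the TGACG letters begin 219 bases and the ETS letters 171 bases before the start.

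None of the 10 feedback genes was called as changed after C1q, against 0% of the 17529 probe sets tested. The arrays of both groups overlapped for each of the 10, where groups did not overlap for 5.72% of all probe sets. Ratios of C1q to untreated ran from 0.945 for Spry1 to 1.07 for Etv5. Ratios and tests are taken on the scale of log2(intensity + 16), which understates changes of dim genes, and come from a limma fit across 17529 probe sets. Over the 10 genes, 95% intervals of the ratio reached down to 0.820 for Spry4 and up to 1.23 for Etv4. On this scale, a change past those limits in either direction lay outside the interval of each gene. The intensities hold an unknown share of background, so the intervals bound the intensity and not the mRNA.

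Sprouty proteins block the activation of Ras below growth factor receptors. Spry2 read 842, 772 and 781 on the untreated arrays and 839, 849 and 852 on the C1q arrays, in the order of arrays 1 to 3 that is kept below. All 3 C1q arrays lay above the untreated mean, and untreated array 1 was the only untreated array within their range. The means were 799 ± 38.1 and 847 ± 6.44 (SD, n = 3 each), a ratio of 1.06 with 95% limits at 0.976 and 1.15. Its unadjusted p, 0.148 in the limma fit across all probe sets, was the smallest of the 10 genes, and its adjusted p was 0.9999.

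Spry1 had a lower mean after C1q that did not pass either. It read 226, 244 and 231 on the untreated arrays and 223, 230 and 208 on the C1q arrays, and all 3 C1q arrays lay below the untreated mean. The means were 234 ± 9.11 and 220 ± 11.2 (SD, n = 3 each), a ratio of 0.945 with 95% limits at 0.837 and 1.07. C1q array 2 lay between untreated arrays 1 and 3, so the groups overlapped. The difference between the responses of Spry1 and Spry2 was not tested.

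Spry4 was the most variable of the 10 genes among untreated arrays and nearly level among C1q arrays. It read 161, 196 and 139 untreated and 158, 162 and 159 after C1q. The C1q arrays fell inside the untreated range. The means were 166 ± 28.7 and 160 ± 2.30 (SD, n = 3 each), a ratio of 0.974 with the lowest of the lower limits, 0.820, and an upper limit of 1.16. The sign of this difference depended on untreated array 2, since without it the log2 fold change was 0.08 in place of -0.04. On the same array all 7 tested markers of vascular and meningeal cells had their highest untreated value, against 23.3% of all probe sets tested. The summed intensity of the 14 such markers was 8394 there, where untreated arrays 1 and 3 had 7903 and 8000. Most of that sum was 1 gene, Acta2, at a mean of 6837 ± 153 untreated (SD, n = 3), so it says little of the other markers. The part of vascular and meningeal cells in the Spry4 values was not tested.

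Spred proteins bring neurofibromin, which switches Ras off, to the membrane. Spred1 read 1158, 1029 and 1006 untreated and 1065, 1047 and 1022 after C1q. Untreated array 1 was the highest of the 6 and untreated array 3 the lowest, with the C1q arrays between them. The ratio was 0.984, with an interval of 0.899 to 1.08. Spred2 read 967, 819 and 880 untreated and 886, 929 and 845 after C1q, again with every C1q array inside the untreated range. Its means were 889 ± 74.2 and 887 ± 42.0 (SD, n = 3 each), a ratio of 0.999 with 95% limits at 0.903 and 1.11. Directions of both Spred genes turned to higher with median centring of the arrays, and that of Spred2 also with quantile normalization.

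Dusp6 is a cytoplasmic phosphatase that acts mainly on ERK, and its transcript is widely used as a marker of ERK activity. It read 1100, 1006 and 1065 untreated and 1095, 1049 and 1038 after C1q. The C1q arrays lay within the untreated range. The means were 1057 ± 47.4 and 1061 ± 29.9 (SD, n = 3 each), a ratio of 1.00 with 95% limits at 0.927 and 1.09.

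Dusp4 and Dusp5 encode nuclear phosphatases. Dusp4, which acts on ERK and on other MAP kinases, read 3386, 3202 and 3149 untreated and 3307, 3293 and 3192 after C1q. Again no C1q array left the untreated range, and the means were 3246 ± 124 and 3264 ± 62.6 (SD, n = 3 each). Its interval, 0.941 to 1.08 around a ratio of 1.01, was the narrowest of the 10 on the log2 scale. Dusp5, which acts mainly on ERK and whose window carries the CArG boxes, read 224, 194 and 196 untreated and 224, 212 and 206 after C1q. All 3 C1q arrays of Dusp5 were above the untreated mean, with untreated array 1 level with the highest of them. The means were 205 ± 17.1 and 214 ± 8.82 (SD, n = 3 each), a ratio of 1.04 with 95% limits at 0.915 and 1.19.

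Etv5 had a higher mean after C1q that did not pass. It read 362, 308 and 309 untreated and 346, 383 and 324 after C1q, so that untreated array 1 lay above 2 of the 3 C1q arrays. The means were 326 ± 30.5 and 351 ± 29.9 (SD, n = 3 each), a ratio of 1.07 with 95% limits at 0.939 and 1.22 and an unadjusted p of 0.274 in limma. Etv4 was the dimmest member, at 101, 93.1 and 106 untreated and 97.0, 102 and 117 after C1q. C1q array 3 alone lay above all untreated arrays. Its means of 100.01 ± 6.56 and 105 ± 10.2 (SD, n = 3 each) stood just over the filter on dim probe sets, an intensity of 94.4. The ratio was 1.04 with 95% limits at 0.886 and 1.23, or 0.870 and 1.27 with a pseudocount of 1.

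**Figure D1:**
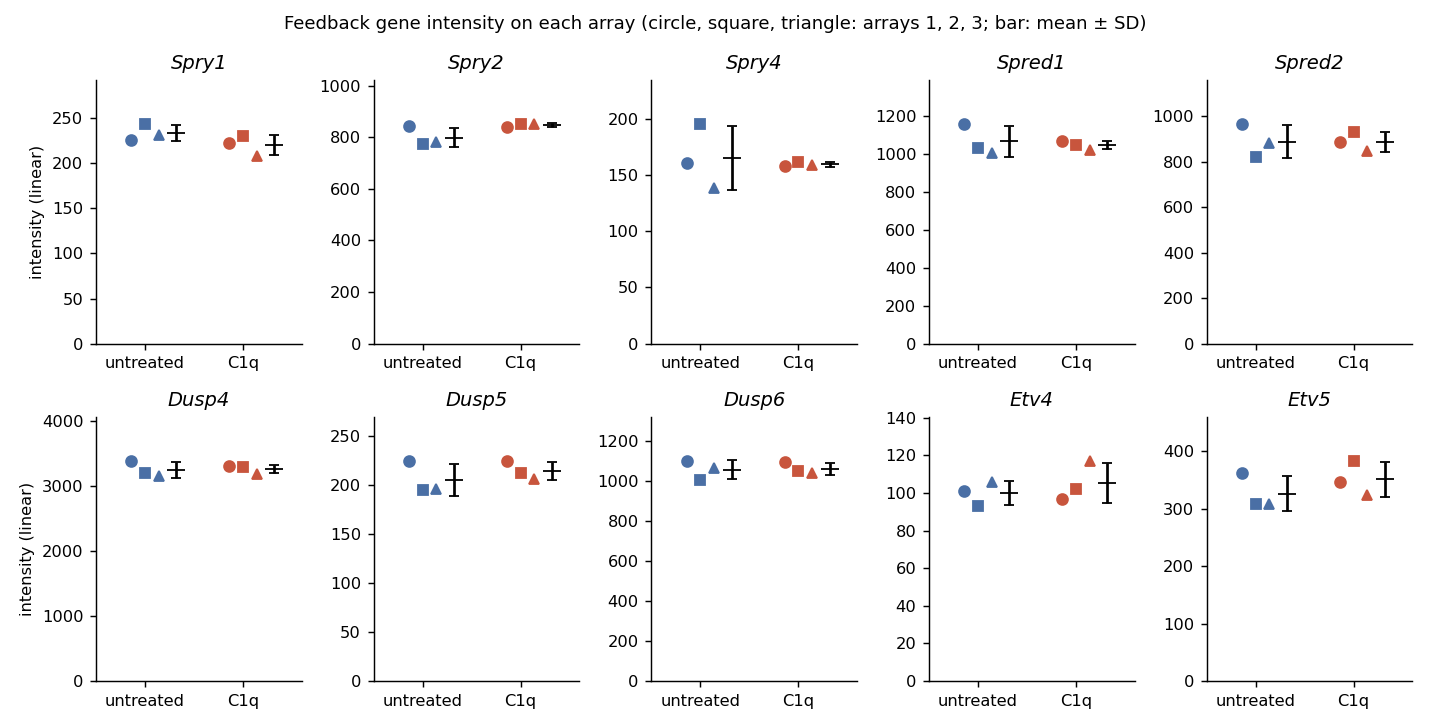
Intensity (linear axis from 0, 1 panel per gene) on untreated arrays (blue) and C1q arrays (red), with circles, squares and triangles for arrays 1, 2 and 3 and black bars for mean ± SD. Both groups overlap in every panel, and the untreated arrays of Spry4 spread from 139 to 196 while its C1q arrays lie between 158 and 162.

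**Figure D2:**
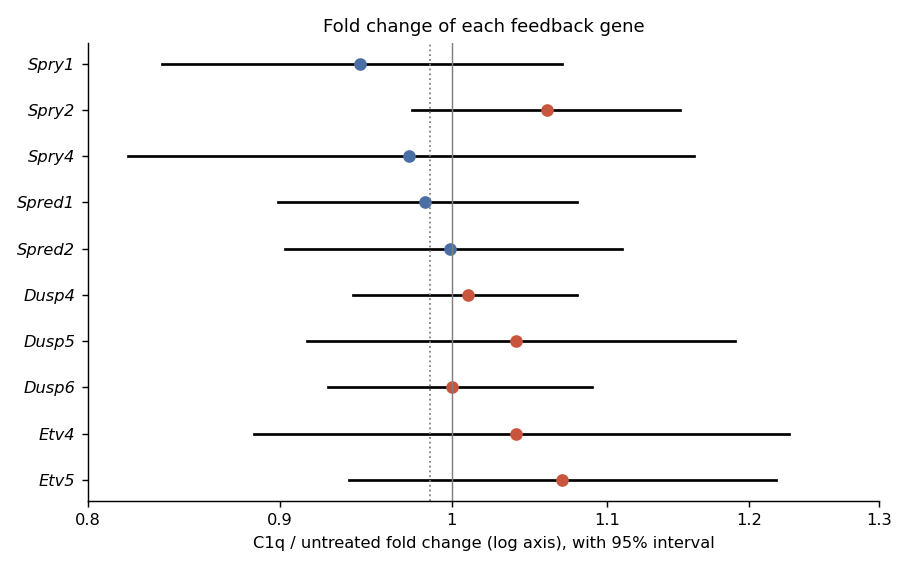
Fold change of C1q over untreated (points, log axis) with the 95% interval of the limma fit (lines) for each gene; red points have higher and blue points lower means after C1q, and the dotted line is the median of all probe sets tested. Every interval includes 1, and the limits stay between 0.820 and 1.23.

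By limma's adjusted p, 0 of the 10 genes passed at 0.05, against 0% of the 17529 probe sets tested. At an unadjusted p under 0.05 there were 0 of the 10, against 2.49% of all. Groups did not overlap for 0 of the 10, against 5.72% of all. Limma's count of calls was 38 probe sets without untreated array 2 and 447 of 17529 with array weights. In either case 0 of the 10 genes was among them, which at such small shares says little about these genes. Means were higher after C1q for 6 genes and lower for 4, which became 7 and 3 with quantile normalization and 8 and 2 with median centring. Higher means made up 36.7% of all probe sets tested, 50.8% with quantile normalization and 55.4% with median centring. The median log2 fold change was 0.007 for the 10 genes and -0.019 for all probe sets tested, values of 0.034 and 0.008 with median centring. All 3 C1q arrays exceeded the untreated mean for 2 of the 10 genes, Spry2 and Dusp5, and for 10.7% of all probe sets. All 3 lay at or below it for Spry1 and Spry4, as for 27.4% of all probe sets.

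Untreated array 1 carried the highest untreated value of 7 genes, those other than Spry1, Spry4 and Etv4. The same array was the highest of its group for 55.2% of all probe sets tested, and its upper quartile, 632, was the highest of the 6 arrays, where the others lay between 592 and 619. Relative to the mean of the untreated arrays, the median of the 10 genes was 0.069 on untreated array 1, -0.057 on array 2 and -0.037 on array 3 on the log2 scale. The C1q arrays stood at 0.016, 0.024 and -0.024. The medians thus spread further among untreated arrays than the C1q arrays lay from the untreated mean. Without untreated array 1, the log2 fold change was 0.12 for Spry2, 0.12 for Dusp5 and 0.17 for Etv5. In that fit 8 of the 10 means were higher, against 50.3% of the 17464 probe sets tested both there and with all 6 arrays. Over all 6 fits that leave out 1 array, the log2 fold change ran from 0.06 to 0.12 for Spry2, from 0.03 to 0.12 for Dusp5 and from 0.04, without C1q array 2, to 0.17 for Etv5. Without C1q array 1, 4 of the 10 means were higher. The part of untreated array 1 in these differences beyond those values was not tested.

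**Figure D3:**
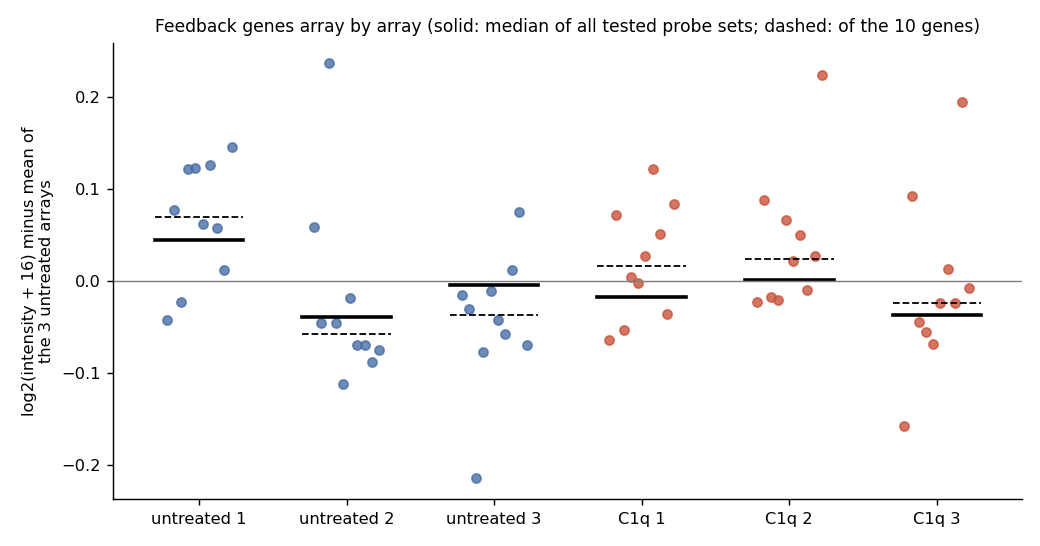
Log2(intensity + 16) of each of the 10 genes on each array minus its mean over the 3 untreated arrays (points, blue untreated, red C1q; genes in the same order within each array), with the median of the 10 genes (dashed) and of all tested probe sets (solid). On untreated array 1 the median of the 10 genes is 0.069 and that of all probe sets 0.045, and no C1q array has a median of the 10 genes as high.

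The 10 genes had mostly a smaller spread among C1q arrays than among untreated arrays. The coefficient of variation was lower after C1q for 8 of them, all but Spry1 and Etv4, and for 70.3% of all probe sets tested. Its median was 7.11% untreated and 3.47% after C1q for the 10 genes, a description of 3 arrays a group with no test, and 6.51% and 4.54% over all probe sets. Spry2 had 4.78% and 0.760%, and Spry4 17.3% and 1.44%. The residual SD on the log2 scale had a median of 0.0825 over the 10 genes and 0.0831 over all probe sets tested, so the genes were measured about as tightly as the rest of the array.

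Most of the inhibitors gave a bright signal in untreated neurons. From the brightest, mean untreated intensities ranked Dusp4 at 934 of 29215, Spred1 at 4521, Dusp6 at 4546, Spred2 at 5351, Spry2 at 5855 and Etv5 at 10632. Spry1 followed at 12334, Dusp5 at 13020, Spry4 at 14140 and Etv4 at 17256. Dusp4 was thus brighter than 96.8% of probe sets and Etv4 brighter than 40.9%. Untreated arrays of neighbours in this order overlapped for Spred1 and Dusp6, for Spred2 and Spry2, and for Dusp5 and Spry4, and lay apart for the other 6 neighbouring pairs. Probe sets bind their targets with different strength, so the order is one of brightness and not of transcript number.

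**Figure D4:**
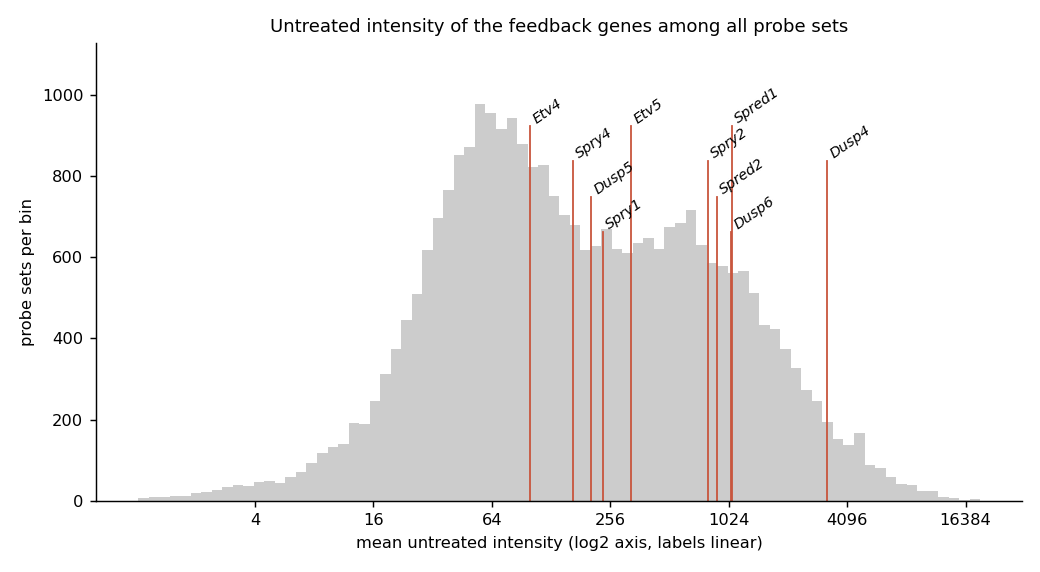
Histogram of mean untreated intensity over probe sets with a mean above 1 (log2 axis, linear labels), with a red line at each feedback gene. Dusp4 stands alone at 3246, the Spred genes, Dusp6 and Spry2 cluster between 799 and 1064, and Etv5, Spry1, Dusp5, Spry4 and Etv4 lie between 326 and 100.01.

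Relatives of the 10 genes and other inhibitors of the pathway did not pass either. Of 16 tested genes 0 were called by limma, with 9 means higher and 7 lower and a median log2 fold change of 0.007. With quantile normalization 9 means were higher and with median centring 13. Etv1, which completes the subfamily of Etv4 and Etv5, was bright at 1345 ± 62.9 untreated and 1353 ± 13.1 after C1q (SD, n = 3 each). Spred3 read 428 ± 31.3 and 468 ± 28.8 (SD, n = 3 each), a ratio of 1.09 with 95% limits at 0.973 and 1.22. Spry3 read 207 ± 14.9 and 221 ± 45.9 (SD, n = 3 each). Among other phosphatase genes, ratios were 0.985 for Dusp1, an immediate early gene, 0.966 for Dusp7, a cytoplasmic ERK phosphatase like Dusp6, and 1.03 for Dusp8, which acts on the stress kinases. Il17rd was not analysed here.

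Genes of the receptors that feed the pathway did not pass. Of 25 tested receptor and adaptor genes 0 were called by limma, with 14 means higher and 11 lower, 16 and 9 with quantile normalization and 18 and 7 with median centring, and a median log2 fold change of 0.004. Ntrk2 encodes the receptor of brain-derived neurotrophic factor and had means of 2330 ± 96.7 without and 2343 ± 27.1 with C1q (SD, n = 3 each). The fibroblast growth factor receptor gene Fgfr1 read 1141 ± 70.1 and 1143 ± 38.4, and Fgfr2 755 ± 37.3 and 720 ± 22.4 (SD, n = 3 each). Fgfr3 had a ratio of 1.01 and Egfr, a dim gene at 126 untreated, 1.02. Shc2, an adaptor gene named after its values were seen, was the only one of these whose groups did not overlap, at 436 ± 17.1 and 476 ± 15.0 (SD, n = 3 each), with an unadjusted p of 0.0757 in limma.

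Of 14 tested genes of the cascade itself, from Ras to the kinases below ERK, 0 were called by limma, with 5 means higher and 9 lower. With quantile normalization 7 were higher and with median centring 8. The MEK genes Map2k1 and Map2k2 both had ratios of 1.01, with intervals of 0.907 to 1.12 and 0.936 to 1.09. The Raf gene Braf had a ratio of 0.984 and the Ras gene Hras 0.967.

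Nuclear targets of ERK, immediate early genes among them, were likewise not called. C1q was read at 3 h only, so a change that had come and gone by then would not be seen. Of 20 tested target genes 0 passed in limma, with 11 means higher and 9 lower, 13 and 7 with either rescaling. Fosl2 had a ratio of 0.998, Junb 1.01 and Ccnd1, the cyclin D1 gene, 1.02. Ier2 averaged 244 ± 21.6 in untreated and 225 ± 24.2 in treated neurons (SD, n = 3 each). Fos had a ratio of 0.909 and Egr1 0.896, with intervals that included 1, and Egr1 was the only tested target whose groups did not overlap. Over all 4 lists, groups did not overlap for 2 of 75 tested genes, or 2.67%, against 5.72% of all probe sets, and 0 had an unadjusted p under 0.05.

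**Figure D5:**
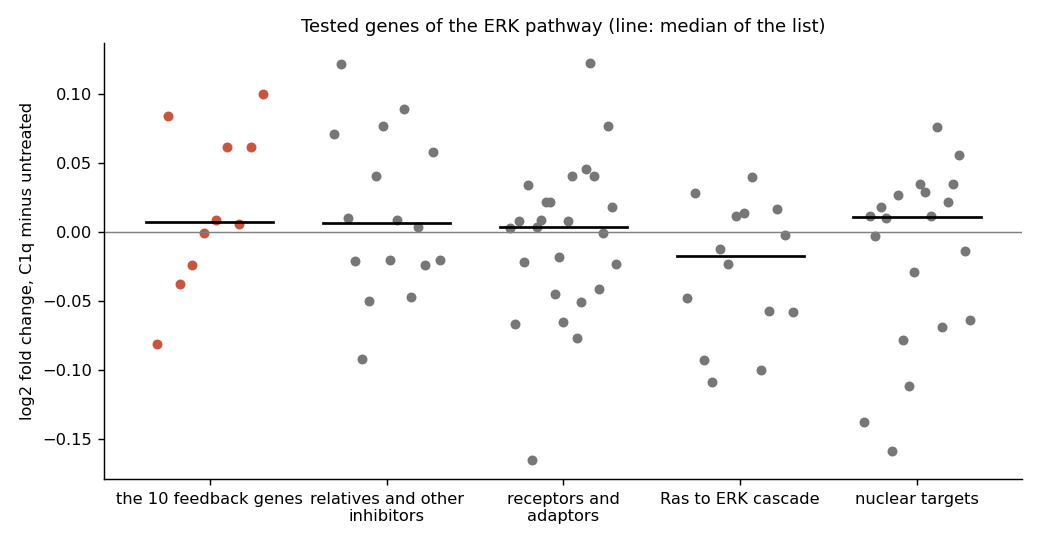
Log2 fold change, C1q minus untreated, of each tested gene (points) in the 10 feedback genes (red) and 4 other groups of the ERK pathway (grey), with the median of each group as a line. Medians lie between -0.017 for the cascade and 0.011 for nuclear targets.

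The cultures carried the markers of young neurons, among them Tubb3 at 8078 ± 408, Dcx at 8601 ± 336 and Neurod6 at 6028 ± 246 in untreated arrays (SD, n = 3 each). Of 17 neuronal markers tested, 13 means were lower after C1q, a count of 7 with median centring. Their summed intensity ran from 56411 to 61386 untreated and from 56474 to 59074 after C1q. Counts of lower means here stand beside 11095 lower means among all 17529 probe sets tested. Of all these probe sets 36.7% were higher, 55.4% with median centring. Radial glia and astrocytes also express Spry, Spred and Etv genes, and of their 14 markers on the array 13 passed the filter on dim probe sets, with Fabp7 at 2389 ± 140 and Gfap, below the filter, at 51.7 ± 3.49 (SD, n = 3 each). The summed intensity of these 14 markers ran from 11076 to 11464 on untreated arrays and from 10872 to 11120 on C1q arrays. Of 10 microglial markers 8 were below the filter, with Itgam at 32.6 ± 7.70 (SD, n = 3), and none was at 0. Their sum ran from 648 to 676 untreated and from 669 to 686 after C1q. Of 8 oligodendrocyte lineage markers 6 were tested and all 6 means were lower, 4 of 6 with median centring, at sums of 1381 to 1516 and 1338 to 1426. Of 14 vascular and meningeal markers 7 were tested, with 2 means higher and 5 lower, and sums of 7698 to 7993 on C1q and 7903 to 8394 on untreated arrays were mostly Acta2, the smooth muscle actin gene, at 6837 ± 153 untreated (SD, n = 3). Which cells the signal of the 10 genes came from was not tested, and in a mixed culture fewer cells of a type and less RNA per cell cannot be told apart.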

How the data were processed

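The deposited table holds linear intensities of 29215 probe sets on 6 arrays, as the authors processed them. Labelling with biotin followed the Affymetrix protocol, per the labels' protocols, while summarisation and scaling were not given in the sources used here. Medians of the arrays differed by at most 0.070 (log2), and no rescaling was applied. Names came from the platform annotation and gene IDs were looked up in RefSeq, where 15279 of 15310 matched and 0 symbols changed. Tests covered the 60% of probe sets brightest in mean log2(intensity + 16), 17529 in all, among them all 10 genes. The fit was limma 3.58.1 in R 4.3.3 (lmFit, then eBayes with trend), with Benjamini-Hochberg adjustment over all of these and calls at an adjusted p under 0.05, and it was tested on simulated data. The number of arrays limits the precision. A gene with several probe sets was represented by the brightest. All members and a fixed choice of other pathway genes were named, plus Shc2 and marker genes. Members and lists were chosen with earlier results of these data known. Other settings tried were 2 rescalings, 2 filters, 2 pseudocounts, 2 variance models, array weights, a block for the replicate number, and each array left out. Some genes of the fixed lists are not reported here.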

Additional observations from a re-analysis of the deposited data

How the results depend on the processing

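Each of the 10 genes was refitted in limma under up to 16 other settings, and 0 was called in any of them. Of 156 fold changes obtained, 139 kept the sign reported, and 4 genes, Spry1, Spry2, Dusp5 and Etv5, kept it in every setting that gave a value. Settings that change only the filter, the variance model or the block leave the fold change as it was. Their values are among the 139 and could not turn, so the count overstates the stability. With the brightest 40% of probe sets, Spry1, Spry4, Dusp5 and Etv4 fell under the filter. Signs turned for Spred1 and Spred2 with median centring (log2 fold changes of 0.003 and 0.03), for Spred2 with quantile normalization (0.02), and for Spry4, Spred1, Spred2 and Etv4 with array weights (0.14, 0.05, 0.006 and -0.02). With each array left out once the range was -0.15 to 0.08 for Spry4, -0.06 to 0.04 for Spred1, -0.06 to 0.06 for Spred2, -0.01 to 0.04 for Dusp4, -0.03 to 0.03 for Dusp6 and -0.004 to 0.11 for Etv4, and 4 to 8 of the 10 means higher. Over all probe sets, the count of calls was 0 as reported, 1 without the filter, 447 with array weights and 0 to 38 when each array was left out. Array weights ran from 0.335 on untreated array 2 to 5.51 on untreated array 3, so that fit rested mostly on 1 untreated array. The smallest adjusted p of any of the 10 genes, 0.130 for Spry2, came from it. The cause of the other changes was not tested. With the replicate number as a block the count of calls was 9 of 17529 probe sets, with 0 of the 10 genes. Deviations of same-numbered arrays from their group means correlated across probe sets at 0.014, -0.453 and -0.134. Those of differently numbered arrays correlated at -0.371 to 0.452. Deviations from means of 3 arrays depend on each other, so these values cannot decide whether the numbers pair the arrays. Each gene had 1 probe set, so a mean of several could not be formed. Signal over background is unknown.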
